A study of Rattus norvegicus with 4 samples.

Results

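The genes described here were Hrk, Bax, Bad, Bcl2l1, Bcl2l2, Casp2 and Birc2, regulators of apoptosis that were taken by an exact match of the gene symbol in the probe table. These 7 genes of 720 named on the array were read by 18 of 1263 probe sets other than controls, 4 each for Hrk and Bcl2l1, 3 each for Bax and Casp2, 2 for Bad and 1 each for Bcl2l2 and Birc2. Rat samples, all labelled brain, adrenal medulla, gave total RNA for 4 single-channel oligonucleotide arrays, and each of the 4 groups held 1 array: digested day 7, undigested day 7, digested day 1 and undigested day 1. Strain, genotype and age are not given in the labels used here, nor are what was digested and the question the comparison was made to answer. Because no group was repeated, differences are given as sizes, without a replicate error.

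BCL2 proteins meet at the outer membrane of the mitochondrion. Members that carry only a BH3 domain, such as the products of Hrk and Bad, bind the survival members Bcl-xL (Bcl2l1) and Bcl-w (Bcl2l2), Bax opens the membrane and releases cytochrome c, and caspases then cut cellular proteins, while inhibitor of apoptosis proteins such as the product of Birc2 restrain death signalling. In rat sympathetic neurons, which share a neural crest origin with the chromaffin cells of the adrenal medulla, Hrk (also called Dp5) is known as a transcript that appears when nerve growth factor is withdrawn.

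Hrk and Bcl2l2 were the members whose brightest probe set differed at least 2-fold over the 4 arrays, and the 250 bases before their annotated starts are shown to set the regulatory sequence of the death-promoting gene beside that of the survival gene. Both come from RefSeq on the GRCr8 build, Hrk at chr12:44070562-44070811 on the minus strand and Bcl2l2 at chr15:32326511-32326760 on the plus strand, written 5′ to 3′. Capitals mark matches, on either strand, to the motifs searched.
Hrk: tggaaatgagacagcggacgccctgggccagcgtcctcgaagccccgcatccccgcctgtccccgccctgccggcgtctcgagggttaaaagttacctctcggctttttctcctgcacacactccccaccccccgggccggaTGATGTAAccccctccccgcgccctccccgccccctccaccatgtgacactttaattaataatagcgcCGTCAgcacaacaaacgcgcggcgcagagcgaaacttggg
Bcl2l2: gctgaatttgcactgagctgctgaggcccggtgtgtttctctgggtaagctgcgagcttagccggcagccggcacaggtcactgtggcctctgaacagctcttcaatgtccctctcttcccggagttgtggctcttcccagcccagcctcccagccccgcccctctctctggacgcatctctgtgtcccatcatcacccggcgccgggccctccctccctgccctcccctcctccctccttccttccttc
The first capitals in Hrk are a match to the composite C/EBP-ATF element TGATGNAA, at bases 108 to 101 before the start. The other capitals are a match on the opposite strand to TGACG, a core part of the cyclic AMP response element, at bases 40 to 36 before it. TGATGNAA was found in 3.40% and TGACG in 18.2% of 33469 windows of the same length in the table. The AP-1 site TGACTCA (4.05% of windows) and the full cyclic AMP response element TGACGTCA (1.59%) were not in the Hrk window, and none of the 4 motifs was in that of Bcl2l2. Among the other survival members, TGATGNAA was also in a window of Bcl2l1 and TGACTCA in that of Birc2. TGACG lies within TGACGTCA, so those searches overlap. The windows were 63.6% G or C for Hrk and 64.0% for Bcl2l2, against a median of 51.2% over the table. Windows were in the table for 6 of the 7 members (not Bax). The motifs were chosen after the sequences were seen, and a match is a description of letters only.

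Signals were scaled so that all arrays had the same median, raised to a floor of 51.8 where lower, and log2-transformed. The probe sets with a mean scaled signal of at least 229 formed the analysed set, which held 632 probe sets, 16 of the members' 18 among them. The remaining pair, 1 of Hrk and 1 of Bcl2l1, fell below this limit. A log2 difference of at least 1 either way, that is 2-fold, was counted. The analysed set had a median digestion difference (digested minus undigested, log2) of -0.05 at day 7 and 0.12 at day 1, and a median day difference (day 7 minus day 1) of 0.04 for digested and 0.17 for undigested samples. Using the signals without this scaling moved these medians by 0.14, -0.13, 0.04 and -0.23, so day differences of some members are also given relative to them. The beta-actin 3′ to 5′ signal ratio, which is higher where transcripts were labelled less completely, was 2.66 on the undigested day 7 array and between 1.35 and 1.48 on the others. The same ratio set this array apart much less for GAPDH, at 1.18 against 1.01 to 1.10 on the others. For hexokinase it was 1.40 against 1.05 to 1.31. The 9 probe sets of hybridisation controls had a median log2 of -1.35 on the digested day 7 array against the mean of the other arrays. These values move with every difference that uses those arrays, and their part in the results was not tested. As a check of the labelled tissue, the brightest probe sets of the 6 measured chromaffin markers of 10 listed summed to scaled signals between 237390 and 352324 over the arrays, and those of the 6 measured neuronal markers of 8 listed to between 105268 and 179444. Such sums rest on the brightest members, among them Th, Ddc, Snap25, Nefl and Nefm, while Npy read 58.2 on the digested day 7 array, Slc18a2 was too dim for the analysed set and Gap43 read 102 to 435. Of the glial markers, 5 of 8 were measured and summed to between 5324 and 8914. Adrenal cortex markers were not analysed here, the 1 measured immune marker, Itgam, had signals between 7.92 and 123, and the connective tissue marker Vim stayed under the floor on all 4 arrays.

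Hrk, a BH3-only gene that promotes death by binding Bcl-xL, had the greatest day difference of the 7 genes in both digestion states. As a mean over its 3 analysed probe sets, Hrk was 2.56-fold higher at day 7 in the digested samples (log2 1.36) and 2.48-fold higher in the undigested samples (log2 1.31). This mean is raised by rc_AA925846_s_at (log2 1.90 digested, 1.57 undigested), which entered the analysed set through its day 7 signals. For rc_AI102299_s_at and D83697_at the log2 day differences were 1.51 and 0.66 in the digested samples, and 0.95 and 1.42 in the undigested samples. The brightest Hrk probe set, rc_AI102299_s_at, had scaled signals of 1637 digested and 1681 undigested at day 7, and 575 digested and 870.2 undigested at day 1. Both day 7 signals lay above both day 1 signals, by 2.85-fold in the digested and 1.93-fold in the undigested samples. Probe set rc_AA925846_s_at read 634 digested and 819 undigested at day 7, and 169.9 digested and 276 undigested at day 1. It was the dimmest of the 3 and had the largest folds, 3.73 in the digested and 2.96 in the undigested samples, but it entered the analysed set through its day 7 signals, since its mean day 1 signal of 217 was under the limit of 229. Probe set D83697_at read 734 digested and 1076 undigested at day 7, and 465 digested and 403 undigested at day 1. Its day fold was 1.58 in the digested and 2.67 in the undigested samples, so the probe sets did not share 1 order of the digestion states. The fourth probe set, E13573cds_s_at, read 462 digested and 606 undigested at day 7 and was under the floor at day 1, with 31.3 digested and 48.6 undigested. Against the floor it was at least 8.92-fold higher at day 7 in the digested and at least 11.7-fold higher in the undigested samples, but it lay outside the analysed set. Relative to the medians of all analysed probe sets, the 3 analysed Hrk probe sets stood 0.62 to 1.86 log2 higher in the digested and 0.78 to 1.40 log2 higher in the undigested samples, and none of these signs turned in the values as deposited, after quantile normalisation or with cyclic loess.

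All 4 probe sets of Hrk had both day 7 signals above both day 1 signals. Of the 16 analysed member probe sets 10 did, beside 31.6% of all analysed probe sets (200 of 632). They were the 3 of Hrk, the 3 of Bax, the 3 of Bcl2l1 and 1 of Casp2. Among those of Hrk, rc_AA925846_s_at is in the analysed set through its day 7 signals, and probe sets of the same gene are not separate observations. The members were also chosen with earlier results of these data known, so the count is a description only. The count was 9 in the values as deposited, after quantile normalisation and with cyclic loess, and 7 without Hrk, which leaves fewer probe sets. For these alternatives the share of all analysed probe sets was not taken. A second probe set of Casp2 had both day 7 signals below both day 1 signals, as did 18.2% of all (115 of 632).

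**Figure D1:**
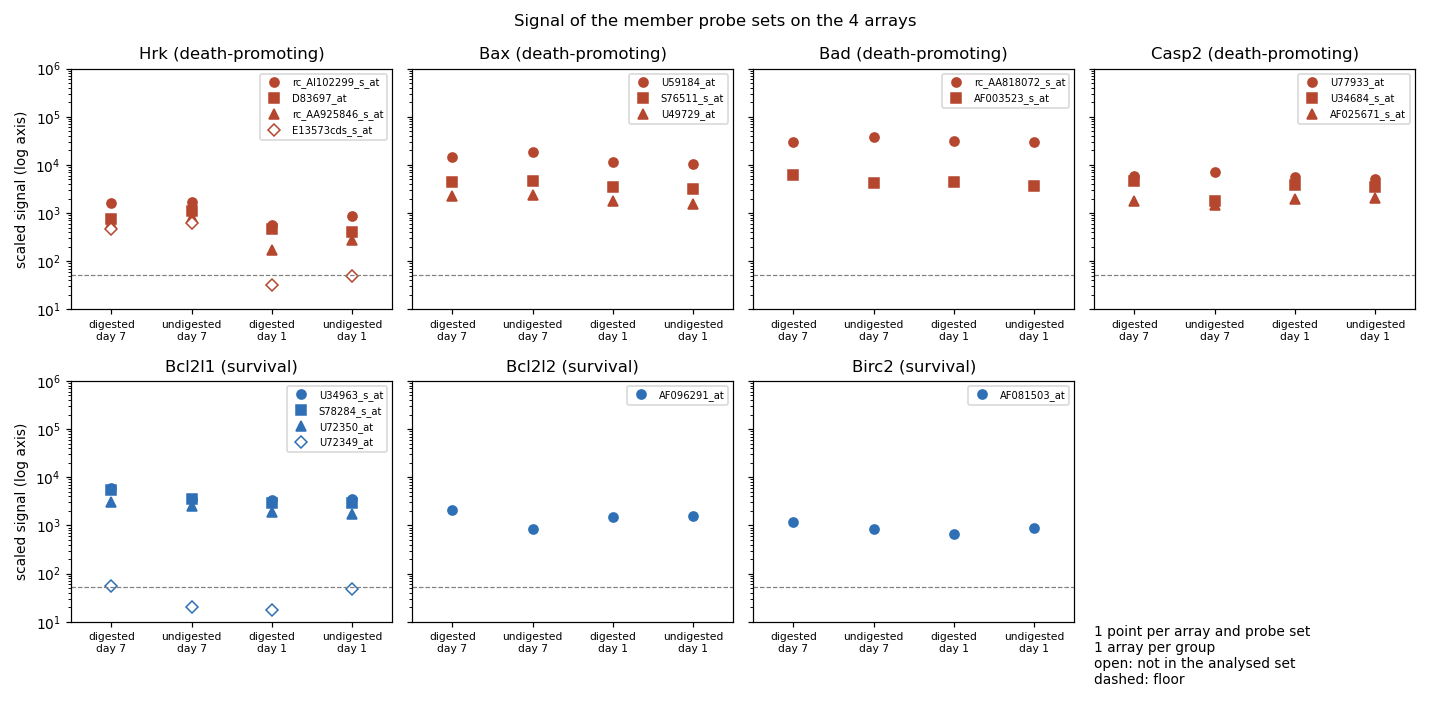
Scaled signal (log axis) of the 18 member probe sets on the 4 arrays, 1 point per array and probe set, with death-promoting genes in red, survival genes in blue, open points for the 2 probe sets outside the analysed set and a dashed line at the floor of 51.8. All 4 probe sets of Hrk were higher on both day 7 arrays than on both day 1 arrays, and Bcl2l2 was lowest on the undigested day 7 array.

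Past 2-fold between the days, the members counted were all of Hrk. In the digested samples 2 of the 16 analysed member probe sets passed 2-fold (12.5%), both higher at day 7, beside 8.07% of all analysed probe sets (51 of 632) either way and 3.32% higher (21 of 632). In the undigested samples 2 of the 16 passed as well, both higher, beside 13.3% of all either way (84 of 632) and 7.28% higher (46 of 632). Taken either way, these shares are near those of all probe sets and say nothing particular about the 7 genes as a set. The median day difference of the 16 probe sets was a log2 of 0.48 in the digested and 0.40 in the undigested samples, against 0.04 and 0.17 over all analysed probe sets. The probe set rc_AA925846_s_at, in the set through its day 7 signals, passed in both states, as did 5 of the 632 upwards (0.791%), and no other member did. The count for the undigested samples was 4 in the values as deposited, after quantile normalisation and with cyclic loess, where Bcl2l2 and U34684_s_at of Casp2 joined as lower at day 7. The share of all analysed probe sets was not taken under those scalings. With limma's additive fit of digestion and day over the 632 probe sets, which had 1 residual degree of freedom, the day difference of the 3 Hrk probe sets was a log2 of 1.73 (95% interval 1.03 to 2.44), 1.23 (0.50 to 1.96) and 1.04 (0.29 to 1.79). The Benjamini-Hochberg adjusted p of this fit was 0.0811 for rc_AA925846_s_at, 0.198 for rc_AI102299_s_at and 0.248 for D83697_at, and 0 of the 16 member probe sets had one under 0.05. The fit called 1 of the 632 probe sets for the day (0.158%) at that threshold. At an unadjusted p under 0.05 it took 3 of the 16, the Hrk probe sets, and 91 of the 632 (14.4%). The adjusted p of rc_AA925846_s_at ranged from 0.00199 to 0.447 over the settings tried, under 0.05 with a floor at the 40th percentile, with an offset in place of the floor and with cyclic loess, and highest without the filter on dim probe sets. Since rc_AA925846_s_at is in the set through its day 7 signals, its p-values support nothing. The error of the fit comes from how far the digestion effect at day 7 departs from that at day 1, which holds sample spread and a real departure alike, and from a spread pooled over probe sets. Anything common to the samples of 1 day is not part of it. The summed signal of neuronal markers was 105268 digested and 127154 undigested at day 7, and 179444 digested and 167756 undigested at day 1. That of glial markers was 5324 digested and 5530 undigested at day 7, and 8914 digested and 8484 undigested at day 1. Single markers did not all follow these sums: by brightest analysed probe set, the 6 neuronal markers had log2 day differences from -1.52 to -0.30 (median -0.66) in the digested and from -2.00 to 0.69 (median -0.03) in the undigested samples, and the 2 analysed glial markers, Glul and Cnp, from -1.04 to -0.11 and from -1.39 to 0.73. Chromaffin markers summed to 237390 digested and 352324 undigested at day 7, and 288783 digested and 270997 undigested at day 1. The median day difference of the 5 analysed was 0.27 in the digested samples, where 1 passed 2-fold downwards, and 0.95 in the undigested samples, where 2 passed upwards. The part of these markers in the Hrk difference was not tested. In RNA of whole samples, fewer cells of a type and less RNA per cell cannot be told apart.

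**Figure D2:**
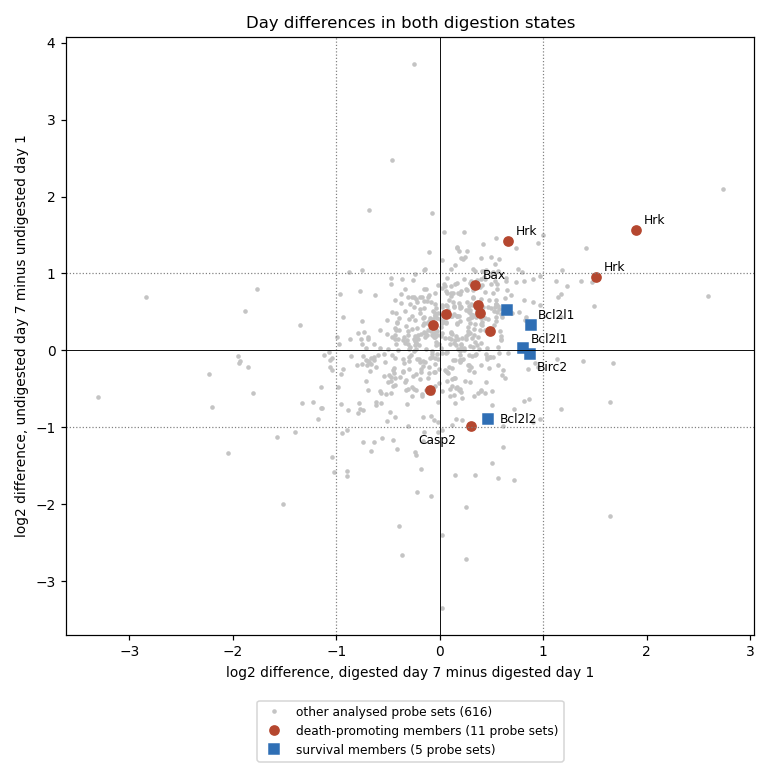
Log2 difference between day 7 and day 1 in the digested samples (horizontal axis) and the undigested samples (vertical axis), with the 616 other analysed probe sets in grey, death-promoting members in red circles and survival members in blue squares. Dotted lines mark 2-fold, and the 3 Hrk probe sets lie to the upper right, 1 of them past 2-fold on both axes.

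Bad, the other BH3-only gene, whose product is held inactive by survival kinases, had a common direction from its pair of probe sets in only some of the comparisons. AF003523_s_at read 6146 digested and 4293 undigested at day 7, and 4387 digested and 3594 undigested at day 1. It was highest on the digested day 7 array, 1.43-fold over undigested at day 7 and 1.40-fold over digested at day 1. The brighter rc_AA818072_s_at read 29419 digested and 37532 undigested at day 7, and 30874 digested and 29800 undigested at day 1. Here the undigested day 7 array was highest and the log2 difference of digested minus undigested at day 7 was -0.35, against 0.52 by the other probe set. The opposite signs leave the direction of Bad unsettled, and all its differences were under 1.5-fold.

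Bax, which codes for the protein that opens the mitochondrial outer membrane, was higher at day 7 by all 3 probe sets in both digestion states, each by less than 2-fold. The brightest, U59184_at, read 14501 digested and 18673 undigested at day 7, and 11427 digested and 10335 undigested at day 1. S76511_s_at read 4511 digested and 4525 undigested at day 7, and 3456 digested and 3221 undigested at day 1. U49729_at read 2281 digested and 2313 undigested at day 7, and 1763 digested and 1534 undigested at day 1. Every day 7 signal of Bax lay above both day 1 signals of the same probe set. The day folds ran from 1.27 to 1.31 in the digested samples and from 1.41 to 1.81 in the undigested samples, a mean log2 difference of 0.37 and 0.65. These were 0.30 to 0.34 and 0.32 to 0.69 log2 above the medians of all probe sets. The additive limma fit gave the 3 probe sets adjusted p-values between 0.426 and 0.563 for the day. Between digestion states Bax stood near the other probe sets, with log2 differences from -0.36 to -0.00 at day 7 and from 0.10 to 0.20 at day 1, and the signs of 2 probe sets at day 7 and of 1 at day 1 turned under another scaling.

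Casp2, which codes for an initiator caspase, was read differently by its 3 probe sets. U34684_s_at read 4619 digested and 1737 undigested at day 7, and 3755 digested and 3426 undigested at day 1. The undigested day 7 array stood apart: the digested sample was 2.66-fold higher at day 7 (log2 1.41). The day difference in the undigested samples was a log2 of -0.98, or -1.15 relative to the median of all analysed probe sets. It passed 2-fold in the values as deposited (-1.21), after quantile normalisation (-1.16) and with cyclic loess (-1.17). That median itself moved by -0.23, -0.17 and -0.17 there. AF025671_s_at read 1816 digested and 1459 undigested at day 7, and 1934 digested and 2092 undigested at day 1. It was also lowest on the undigested day 7 array, but its digestion difference there was only 0.32 log2. U77933_at, the brightest, read 5851 digested and 7003 undigested at day 7, and 5617 digested and 5056 undigested at day 1. In contrast to the other probe sets it was highest on the undigested day 7 array, at a log2 of -0.26 for digested minus undigested and 0.47 for the day in undigested samples. The digestion differences of the 3 probe sets at day 7 ran from -0.26 to 1.41, so the mean over them, given further on, joins values of both signs. The array on which they differ had the beta-actin ratio of 2.66, and its part was not tested.

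Among the survival members, Bcl2l1, whose main product Bcl-xL holds BH3-only proteins and Bax in check, was highest on the digested day 7 array by all 3 analysed probe sets. U34963_s_at read 5975 digested and 3539 undigested at day 7, and 3424 digested and 3462 undigested at day 1. S78284_s_at read 5355 digested and 3607 undigested at day 7, and 2916 digested and 2862 undigested at day 1. U72350_at read 2996 digested and 2482 undigested at day 7, and 1909 digested and 1719 undigested at day 1. At day 7 the digested sample was 1.69-fold, 1.48-fold and 1.21-fold higher than the undigested sample, while at day 1 the log2 differences of -0.02, 0.03 and 0.15 were all close to 0. Between the days Bcl2l1 was 1.57-fold to 1.84-fold higher at day 7 in the digested samples and 1.02-fold to 1.44-fold in the undigested samples. For U34963_s_at the sign of the undigested day difference turned in the values as deposited, after quantile normalisation and with cyclic loess. Relative to the median of all analysed probe sets this difference was a log2 of -0.14. In the digested samples the 3 day differences held ranks 31, 40 and 53 from the top among 632. The fourth probe set, U72349_at, read 54.9 digested and 20.1 undigested at day 7, and 17.4 digested and 46.8 undigested at day 1, under the floor on 3 arrays and just over it on the other, and was not analysed.

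Bcl2l2, which codes for the survival protein Bcl-w, was lowest on the undigested day 7 array. Its only probe set, AF096291_at, read 2096 digested and 858 undigested at day 7, and 1520 digested and 1586 undigested at day 1. The digested day 7 sample was 2.44-fold higher than the undigested one (log2 1.29), while the day 1 pair differed by a log2 of -0.06. Between the days the log2 difference was 0.46 in the digested and -0.89 in the undigested samples, so the undigested difference sat just short of 2-fold. It passed 2-fold downwards in the values as deposited (-1.12), after quantile normalisation (-1.03) and with cyclic loess (-1.04). The median of all analysed probe sets itself moved by -0.23, -0.17 and -0.17 there. Relative to that median the difference was already -1.05 in the setting reported here. The low signal was on the array with the beta-actin ratio of 2.66, whose part was not tested.

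Birc2, which codes for the ubiquitin ligase cIAP1, an inhibitor of apoptosis protein, read 1207 digested and 847 undigested at day 7, and 661 digested and 874 undigested at day 1 by its only probe set, AF081503_at. The digested sample was 1.43-fold higher at day 7 (log2 0.51) and lower at day 1 (log2 -0.40). The digested day 7 array was the highest and the digested day 1 array the lowest, a day difference of 1.82-fold in the digested samples, against a log2 of -0.05 in the undigested samples. Like that of Bcl2l1, the high signal was on the array with low hybridisation controls (-1.35), whose part was not tested.

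**Figure D3:**
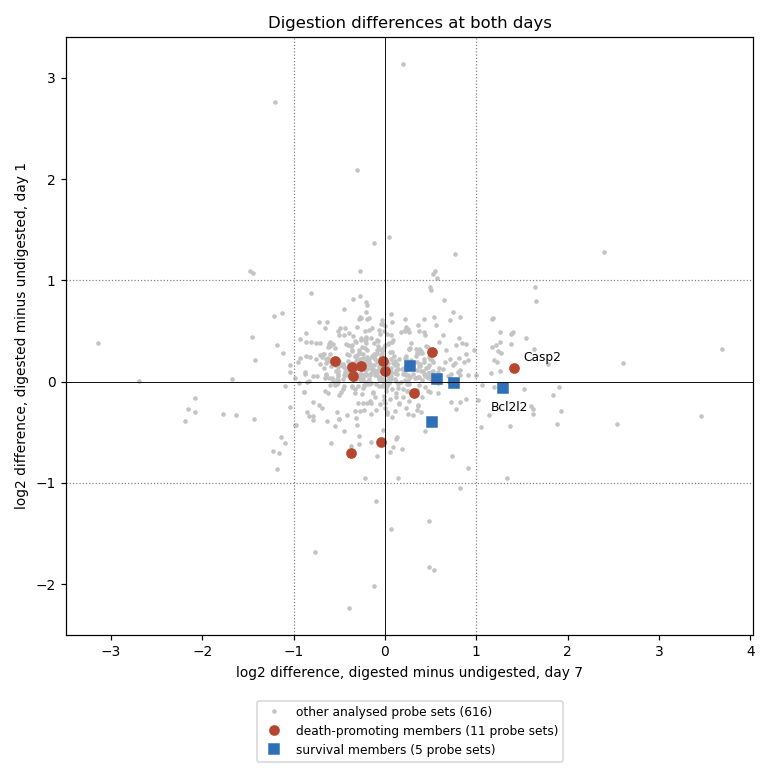
Log2 difference between digested and undigested samples at day 7 (horizontal axis) and day 1 (vertical axis) for the 616 other analysed probe sets (grey), death-promoting members (red circles) and survival members (blue squares), with dotted lines at 2-fold. All 5 survival probe sets lie right of 0, and the probe sets of Bcl2l2 and of Casp2 past 2-fold at day 7 lie near 0 at day 1.

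Between digestion states the members past 2-fold were read at day 7, a difference from day 1 that was not tested. At day 7, 2 of the 16 member probe sets passed 2-fold, both higher in the digested sample (12.5%), those of Bcl2l2 and U34684_s_at of Casp2, beside 11.4% of all analysed probe sets either way (72 of 632) and 6.96% higher (44 of 632). At day 1, 0 of the 16 passed, beside 3.48% of all (22 of 632), and the members' log2 differences ran from -0.70 for Hrk to 0.29 for Bad. The member median was 0.13 at day 7 and 0.08 at day 1, against -0.05 and 0.12 over all analysed probe sets. With limma's additive fit 0 of the 16 had an adjusted p under 0.05 for digestion, and 0 had an unadjusted p under 0.05, against 0 and 42 (6.65%) of all 632. Hrk was lower in the digested sample at both days as a mean over its probe sets (log2 -0.32 at day 7 and -0.36 at day 1), but D83697_at was higher at day 1 (log2 0.21) and rc_AI102299_s_at stood at -0.04 at day 7, a sign that turned in the values as deposited.

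Set against each other, the survival genes stood higher than the death-promoting genes in the digested against the undigested sample at day 7, and lower between the days in the undigested samples. Each gene entered with the mean over its analysed probe sets. That of Hrk includes rc_AA925846_s_at, in the set through its day 7 signals, which raises the death-promoting mean between the days. For digested minus undigested at day 7, the 4 death-promoting genes had a mean log2 difference of 0.03 and the 3 survival genes one of 0.78, a difference of -0.75. As gene means, each of the 3 survival genes stood higher there, at 1.29 for Bcl2l2, 0.53 for Bcl2l1 and 0.51 for Birc2, than any of the 4 death-promoting genes, of which Casp2 was highest at 0.49. Single probe sets overlapped: U34684_s_at of Casp2, at 1.41, stood above all survival probe sets (0.27 to 1.29). The pooled standard deviation between probe sets of the same gene was 0.52 log2 in this comparison, far more than the gap between Birc2 and Casp2. At day 1 the death-promoting and survival means were 0.00 and -0.14, a difference of 0.14. For day 7 minus day 1 in the digested samples they were 0.51 and 0.70, so both sides were higher at day 7 and their difference was -0.20. In the undigested samples they were 0.48 and -0.21, a difference of 0.69. The median over all 386 analysed genes in these 4 comparisons was -0.09, 0.11, 0.06 and 0.17. The day 7 digestion difference and the undigested day difference share the undigested day 7 array, on which Bcl2l2 and a Casp2 probe set were low, so they do not stand as separate observations. That array had the beta-actin ratio of 2.66, and the digested day 7 array had the low hybridisation controls (-1.35). The part of these array readings was not tested. Without Hrk, an alternative added after the data were seen, the differences were -0.63, 0.26, -0.48 and 0.41, so that of the digested samples became larger and that of the undigested samples smaller. With 1 array per group these are values without a test. For digestion at day 7 the chromaffin markers summed to 237390 digested and 352324 undigested with a median log2 of -0.50 over 5 analysed, and the 6 neuronal markers had a median of -0.45. Their part was not tested.

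**Figure D4:**
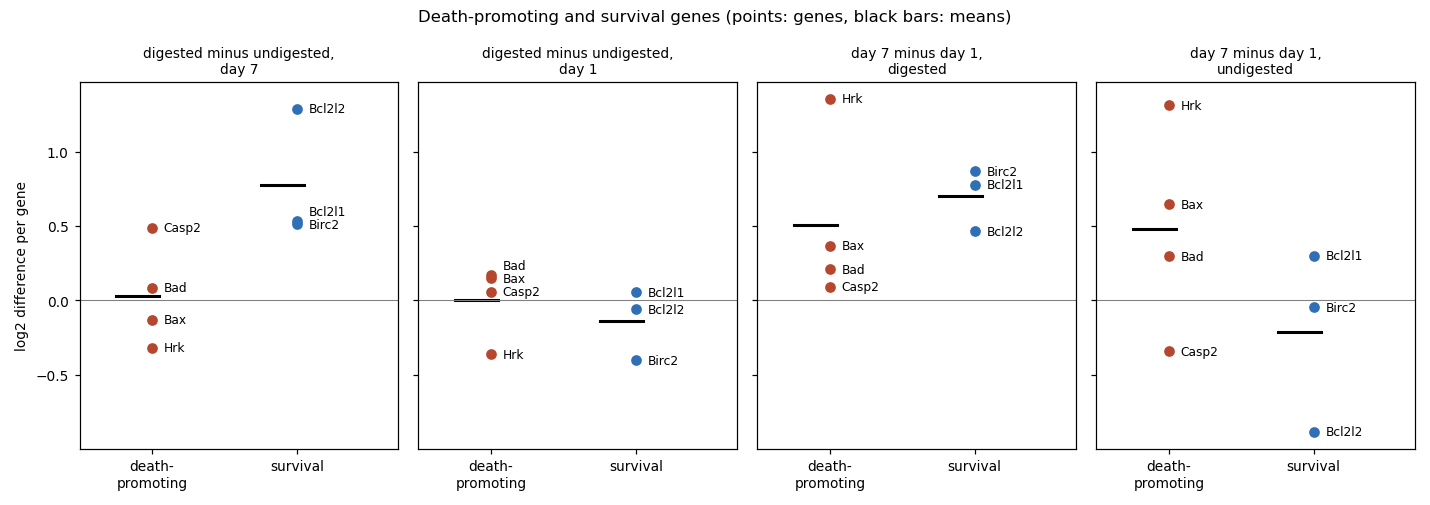
Mean log2 difference of each gene over its analysed probe sets in the 4 comparisons, with death-promoting genes in red, survival genes in blue and black bars at the mean of each side. The survival mean is 0.78 against 0.03 for the death-promoting mean in digested minus undigested at day 7, and -0.21 against 0.48 in the undigested day difference.

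Of 50 further genes of the death machinery and its receptors, 10 were on the array and 4 of them were analysed (Bcl2l11, Bok, Ngfr and Tnfrsf1a). The only one past 2-fold by its brightest probe set was Tnfrsf1a, the gene of a tumour necrosis factor receptor. It read 1946 digested and 2345 undigested at day 7, and 1715 digested and 957 undigested at day 1, which is 2.45-fold higher at day 7 in the undigested samples, where 7.28% of all analysed probe sets passed 2-fold upwards. Bcl2, the founding survival gene of the family, was dim: none of its 3 probe sets was analysed. Bcl2l11, the gene of the BH3-only protein Bim, stood at a log2 of 0.07 for digested minus undigested at day 7 by its brightest probe set and at 1.05 by the other analysed one. Ngfr, the gene of the low-affinity neurotrophin receptor, by its brightest probe set read 24199 digested and 27335 undigested at day 7, and 23806 digested and 23400 undigested at day 1, with log2 differences between -0.18 and 0.22, and its other analysed probe set had differences between -0.22 and 0.20.

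Of 26 kinases and transcription factors upstream of the family, 11 were analysed, and by their brightest probe sets those past 2-fold were lower at day 7 in the undigested samples. Jun, the transcription factor gene whose activity is known to raise Hrk in rat sympathetic neurons, read 1600 digested and 971 undigested at day 7, and 2534 digested and 2410 undigested at day 1. Its log2 day difference was -0.66 in the digested and -1.31 in the undigested samples, opposite in sign to that of Hrk in both. These are transcript levels, the activity of Jun was not measured, and a link between Jun and Hrk was not tested. Pik3r1, a regulatory subunit gene of the PI3 kinase that acts in survival signalling, read 7148 digested and 3871 undigested at day 7, and 7055 digested and 7960 undigested at day 1. Its day difference was 0.02 in the digested and -1.04 in the undigested samples. Jun and Pik3r1 were both lowest on the undigested day 7 array, which had the beta-actin ratio of 2.66 and whose part was not tested. By brightest probe set, 2 of the 11 genes passed 2-fold downwards and 0 upwards in the undigested day comparison, where 6.01% and 7.28% of all analysed probe sets did, and 0 passed in the other 3 comparisons. Dimmer analysed probe sets did pass for digestion at day 7, D64045_s_at of Pik3r1 at a log2 of 1.41 and X03347cds_g_at of Fos, an immediate early gene, at 1.23, and X03347cds_g_at stood at -1.06 for the day in the undigested samples.

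The genes whose pattern over the 4 arrays came closest to that of the brightest Hrk probe set, rc_AI102299_s_at, were Nnat, Bdkrb2 and Nrxn2. Their root mean square distances between centred log2 signals were 0.24, 0.26 and 0.28, against a median of 0.66 over 384 genes. The other Hrk probe sets, which had another order of the digestion states in part, were not compared. Nnat, which codes for neuronatin, read 5655 digested and 5244 undigested at day 7, and 2117 digested and 2085 undigested at day 1. For Bcl2l2 they were Sod2, the gene of mitochondrial superoxide dismutase, Calm3, a calmodulin gene, and Ltbp3, with distances of 0.12, 0.13 and 0.14 against a median of 0.59. Sod2 read 3128 digested and 1542 undigested at day 7, and 2212 digested and 2515 undigested at day 1, so it too was lowest on the undigested day 7 array. These distances rest on 4 arrays and describe likeness only. They lie below the medians because the nearest genes were picked, so the medians give a scale and no support.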

How the data were processed

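Signals of 4 arrays, 1 per group, were read from 1 table. Per the deposited table's own values, each is a signal intensity on a linear scale. No software is named in the sources used here. Their means after trimming 2% at each end lay at 2515 or 2516 on all 4 arrays. Of 1322 probe sets, 59 were controls. Gene symbols came from the platform's probe table, and 1137 probe sets named 1 gene, 8 several and 118 none. Arrays were scaled to a common median (factors 0.984, 1.09, 1.01 and 0.925 for digested and undigested day 7 and digested and undigested day 1), floored at the 20th percentile and taken to log2. Differences between 2 single arrays had no test, and the number of arrays limits precision. The additive fit used limma 3.58.1 in R 4.3.3 and was tested on simulated data. Other steps used Python 3.11.15, matplotlib 3.10.9, scipy 1.17.1, pandas 2.3.3 and numpy 2.4.6. Every member probe set was named, as was each further pathway gene past 2-fold by its brightest analysed probe set. For members whose brightest probe set spanned 2-fold, the 3 genes nearest to it in pattern were named. Members and lists were chosen with earlier results of these data known. Alternatives were a higher floor (40th percentile), an offset, no filter, quantile normalisation, the values as deposited and thresholds of 1.5-fold and 3-fold. Others were the brightest probe set of each gene and, added after the data were seen, cyclic loess and leaving out Hrk. The values as deposited left out the scaling to a common median, but their trimmed means were already alike.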

Additional observations from a re-analysis of the deposited data

Results flagged for a closer look

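In Bcl2l2 (AF096291_at), the digestion difference at day 7 exceeded that at day 1 by a log2 of 1.35, and the digested and undigested samples had opposite signs between the days, at 0.46 and -0.89. In Casp2 (U34684_s_at) the same excess was 1.28, with day differences of 0.30 in the digested and -0.98 in the undigested samples. These differences between groups were not tested, since 1 array per group leaves no residual.

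The Hrk probe set E13573cds_s_at, outside the analysed set, stood 8.92-fold over the floor on the digested day 7 array and 11.7-fold over it on the undigested day 7 array, while both day 1 arrays were under the floor.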

How the results depend on the processing

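No paired analysis was possible because the groups, of 1 array each, share fewer than 2 replicate numbers; the additive fit does take digestion and day each as a term beside the other. The values as deposited cannot change the difference of death-promoting minus survival genes, which kept its sign under the 7 other alternatives in each comparison, within -1.11 to -0.63 for digestion at day 7, 0.10 to 0.26 at day 1, -0.48 to -0.03 for the day in digested and 0.41 to 0.95 in undigested samples. Counts of member probe sets past 2-fold moved as follows. For the day in undigested samples the count was 4 in the values as deposited, 4 after quantile normalisation and 4 with cyclic loess, where Bcl2l2 and a Casp2 probe set joined downwards, against 2. At 1.5-fold the counts were 2 for digestion at day 1, 7 for the day in digested samples and 7 in undigested samples. At 3-fold they were 0 for digestion at day 7, 1 for the day in digested and 0 in undigested samples. Without Hrk, and so among fewer probe sets, they were 0 in both day comparisons. The share of all analysed probe sets past the threshold was not taken at these other settings. The moved counts therefore say nothing particular about the members. The additive limma fit called 3 member probe sets for the day with a floor at the 40th percentile (17 of 632 in all), 1 with an offset (3 of 632) and 1 with cyclic loess (4 of 632). These were all probe sets of Hrk, the setting reported above gave 0 (1 of 632), and the cause was not tested. At the 40th percentile the 3 were E13573cds_s_at, rc_AA925846_s_at and rc_AI102299_s_at, while the calls with an offset and with cyclic loess were of rc_AA925846_s_at. E13573cds_s_at passes the filter only through its day 7 signals, as does rc_AA925846_s_at in the setting reported above. Calls of these probe sets support nothing. Differences that rest on signals near the floor of 51.8 are imprecise.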
